A study of Arabidopsis thaliana with 24 samples.

Results

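The *TAS* genes give rise to the non-coding precursors of trans-acting small interfering RNAs (tasiRNAs), and the 6 precursors *TAS1A*, *TAS1B*, *TAS1C*, *TAS2*, *TAS3* and *TAS4* were taken by their locus identifiers from the 33331 genes counted in each RNA-seq library. All 6 passed the filter on low counts, as did 22089 genes in all. The libraries came from *Arabidopsis thaliana* seedlings of 8 genotypes, 3 libraries each and 24 in total, kept for 4 days in shaken 3% sucrose solution with 24 h of light per day, the anthocyanin inductive conditions (AIC) of the study. Col-0 was the wild type, and *tt19-8*, in the Col-0 background, carries a T-DNA insertion in *TT19*, a glutathione S-transferase gene needed for anthocyanin accumulation. The other 6 genotypes are suppressor lines, which all carry *tt19-8* and a further mutation induced by ethyl methanesulfonate that restores pigmentation. The study mapped the mutation to *RDR6* in S1, S2, S4 and S8, where S4 has a missense and the others nonsense changes. In S5 it lies at a splice site of *SGS3* and in S7 at a splice site of *DCL4*. Each suppressor is a single mutant line, so the named mutation and any other induced change in that line cannot be told apart. No suppressor mutation was present without *tt19-8*, so every line differs from Col-0 in at least the *TT19* insertion and its own mutation.

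A microRNA (miRNA) first cleaves a *TAS* transcript. SGS3 stabilizes a cleavage product, RDR6, an RNA-dependent RNA polymerase, copies it, and DCL4, a Dicer-like endonuclease, cuts the paired strands from the cleavage point onward into phased 21-nucleotide tasiRNAs. The tasiRNAs then guide Argonaute proteins to other transcripts. *TAS1* and *TAS2* respond to miR173 and give siRNAs against *HTT* genes (HEAT-INDUCED TAS1 TARGET) and genes for pentatricopeptide repeat (PPR) proteins, *TAS3* responds to miR390 with AGO7 and acts on *ARF* genes for auxin response factors, and *TAS4* responds to miR828 and acts on the *MYB* genes *PAP1*, *PAP2* and *MYB113*, regulators of anthocyanin synthesis.

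The miRNAs and their sites in the precursors are printed because they define where each precursor is cleaved. All sequences were read from the RefSeq assembly TAIR10.1, and the miRNAs are written 5′ to 3′ with the seed (bases 2 to 8) in capitals. The mature miR390a-5p and miR390b-5p are identical.
miR173-5p: uUCGCUUGcagagagaaaucac
miR390a-5p: aAGCUCAGgagggauagcgcc
miR828: uCUUGCUUaaaugaguauucca
The 3 seeds differ from each other.

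In each precursor the window that paired best with its miRNA was found by counting 1 for a mismatch and 0.5 for a G:U pair. In the sites, capitals mark the bases that pair with the miRNA by Watson-Crick rules.
TAS1A: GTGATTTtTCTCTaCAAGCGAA
TAS1B: GTGATTTtTCTCaaCAAGCGAA
TAS1C: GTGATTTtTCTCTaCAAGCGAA
TAS2: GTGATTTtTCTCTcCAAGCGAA
TAS3, 5′ site: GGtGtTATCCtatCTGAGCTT
TAS3, 3′ site: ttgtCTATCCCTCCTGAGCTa
TAS4: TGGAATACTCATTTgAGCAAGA
*TAS1A* and *TAS1C* held the same site, *TAS1B* had 1 more mismatch and *TAS2* differed at 1 base. The *TAS4* site paired with miR828 over its whole length but for 1 G:U pair. The 5′ site of *TAS3* had a mismatch opposite base 10 of miR390, counted from the 5′ end of the miRNA, while at the 3′ site the 5 mismatches lay opposite base 1 and bases 18 to 21. In TAIR10.1 the sites lie on the minus strand at chr2:11722081-11722102 (*TAS1A*), chr1:18549660-18549681 (*TAS1B*), chr2:16537890-16537911 (*TAS1C*), chr2:16539991-16540012 (*TAS2*) and chr3:9417809-9417830 (*TAS4*), and on the plus strand at chr3:5862099-5862119 and chr3:5862343-5862363 (*TAS3*).

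From the cleavage point, taken between the bases opposite positions 10 and 11 of the miRNA, 12 windows of 21 bases in phase, read on each strand and so 24 in all, were compared with the listed targets of each precursor. For the *TAS3* precursor the windows ran upstream of its 3′ site and for the others downstream of their site. The windows with the best mean score over the listed targets are shown for the description of these targets later. A window need not pair well with each listed target.
TAS1A, TAS1B and TAS1C: uucuaaguccaacauagcgua
TAS2: auaucccauuucuaccaucug
TAS3: ucuugaccuuguaaggccuuu
TAS4: ugaaggaucgaggucgaggca
The *TAS1* window was the sense strand of window 6 in *TAS1A* and *TAS1B* and of window 3 in *TAS1C*, with the same 21 bases in all 3 precursors. The *TAS2* window was the antisense strand of window 6, the *TAS3* window the sense strand of window 8, and the *TAS4* window the antisense strand of window 4. Opposite the *TAS4* window, the following stretches of the 3 *MYB* transcripts paired (capitals as above).
PAP1: aGCCTCGACCTCGATCCTTCA
PAP2: aGCCTCGACCTCGATCCTTCt
MYB113: aGCCTCGgCCTCGATCCTTCt
Small RNAs are not analysed here, so these windows describe the sequence and not which siRNAs were present.

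The 6 loci lie on 3 chromosomes and are between 839 and 1155 bases long. *TAS1A* (AT2G27400) is at chr2:11721539-11722468, *TAS1B* (AT1G50055) at chr1:18549204-18550042, and *TAS4* (AT3G25795) at chr3:9417551-9418705, all on the minus strand. *TAS1C* (AT2G39675; chr2:16537288-16538277) and *TAS2* (AT2G39681; chr2:16539384-16540417) are neighbours on the minus strand with 1106 bases between them. *TAS3* (AT3G17185) is at chr3:5861491-5862437 on the plus strand and has 2 annotated transcripts. All are annotated as non-coding genes without a coding sequence. *TAS1B* and *TAS1C* were 81.9% identical over 419 aligned positions and *TAS1A* and *TAS1B* 74.4% over 918, but no stretch of 100 bases, the read length, of any precursor occurred elsewhere in the genome without a mismatch. The 3′ end of *TAS1C* overlaps AT2G39670 on the opposite strand by 31 bases, and *TAS1B* spans the 78 bases of *MIR5636* (AT1G07613), which the count files do not list. Reads from overlapping genes cannot be told apart without the strand, and whether counting used the strand is not given in the sources used here. AT2G39670 was at 30.1 to 45.6 CPM over the genotype means. CPM is the count scaled to a common library total, after that total is multiplied by a TMM normalization factor. AT2G39670 passed the test against *tt19-8* only in S7, where *TAS1C* did not.

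Library totals ranged from 25827059 to 73443869 counts, so that 3 counts corresponded to 0.0414 to 0.116 CPM, and the precursors had from 48 to 3051 counts per library. *TT19* was at 125 to 133 CPM in Col-0 and 0.936 to 11.6 in the other genotypes. The flower markers *AP3*, *PI* and *AG* together stayed at 0.142 to 1.53 CPM, with 3 of 3 called higher in S1 than in *tt19-8* and 1 of 3 in S2, S4 and S5. Leaf markers were at 161 to 195 CPM in *tt19-8*, 294 to 393 in S7 and 102 to 234 in the other genotypes. Against *tt19-8*, 2 of 3 were called higher in S7 and 1 of 3 in S2, and 1 of 3 lower in S1 and in S4. Root hair markers were at 19.9 to 33.2 CPM in *tt19-8* and 7.38 to 27.3 in the other genotypes, and 2 of 2 were called lower than in *tt19-8* in S1, S7 and S8. In *tt19-8*, 1 of 2 was called higher than in Col-0. Of all genes tested, 18.7% (S4) to 37.3% (S7) were called in the lines against *tt19-8*, and 13.6% between *tt19-8* and Col-0. The part of these markers in the results was not tested. The summed seed storage markers *CRA1*, *SESA1* and *OLEO1* differed greatly between genotypes, at 42.6 to 85.1 CPM in Col-0, 615 to 713 in *tt19-8*, 3256 to 3380 for S1, 766 to 2912 for S2, 1056 to 1121 for S4, 579 to 1320 for S5, 305 to 548 for S7 and 728 to 968 for S8. Replicate 3 of *tt19-8*, S2 and S8 stood apart by *SUS4*, with 540, 106 and 407 CPM against 13.9 to 58.7 in the other libraries of these genotypes. The labels do not say whether replicates were separate cultures, so p-values measure the spread between these libraries. In whole seedlings, fewer cells of a type and less RNA per cell cannot be told apart.

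Among the precursors, *TAS2* was the most abundant per length in Col-0 and *tt19-8*, at 15.2 and 15.9 CPM per kilobase (mean, n = 3), and *TAS1B* the least abundant, at 3.63 and 4.15. *TAS4* came after *TAS2*, *TAS1A* and *TAS1C* in Col-0 at 8.22 CPM per kilobase, and in *tt19-8*, at 5.54, it was above *TAS1B* alone. In S2, S5, S7 and S8 it was the most abundant of the 6, at 43.6, 18.7, 42.1 and 35.7 CPM per kilobase, and in S1 and S4 it came after *TAS2*. Over the genotype means *TAS4* varied 7.87-fold, *TAS1C* 5.08-fold, *TAS2* 2.83-fold, *TAS3* 2.00-fold, *TAS1A* 1.94-fold and *TAS1B* 1.78-fold. The plot of all libraries shows these levels.

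**Figure D1:**
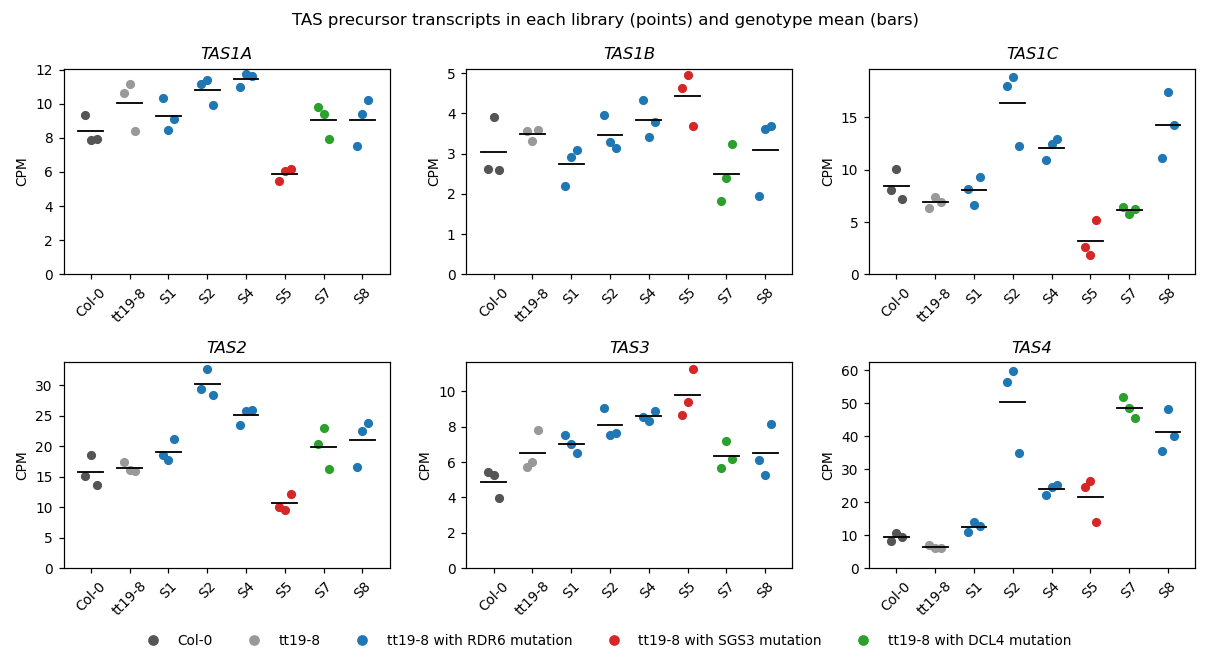
CPM of each *TAS* precursor (y axis, from 0, with its own range in each panel) in the 8 genotypes (x axis); points are the 3 libraries of a genotype and the bar is their mean. *TAS4* lies between 5.97 and 7.16 CPM in *tt19-8* and above 10.8 in every library of a suppressor line, and S5 (red) is lowest for *TAS1A*, *TAS1C* and *TAS2*.

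*TAS4*, whose siRNAs act on the anthocyanin regulators, was higher than in *tt19-8* in all 6 suppressor lines. It was at 8.29, 10.8 and 9.42 CPM in Col-0 and 7.16, 6.08 and 5.97 CPM in *tt19-8*. In the lines with a mutated *RDR6* it was at 10.9, 13.9 and 12.7 in S1, 56.4, 59.7 and 35.0 in S2, 22.3, 24.7 and 25.2 in S4, and 35.6, 48.1 and 40.1 in S8. In S5 (*SGS3*) it was at 24.6, 26.4 and 13.9, and in S7 (*DCL4*) at 51.9, 48.5 and 45.5. No library of a line overlapped the *tt19-8* libraries, and replicate 3 of S2 and of S5 was the lowest of its line. *TAS4* was 7.86-fold higher than *tt19-8* in S2, 7.59-fold in S7, 6.44-fold in S8, 3.75-fold in S4, 3.37-fold in S5 and 1.95-fold in S1, each past the threshold of an adjusted p under 0.05 in edgeR's quasi-likelihood test (adjusted p 0.00108 in S1 and at most 7.82e-06 in the others). Of all genes tested, 34% were called against *tt19-8* for S1, 19.1% for S2, 18.7% for S4, 24.7% for S5, 37.3% for S7 and 25.6% for S8. Without replicate 3 of *tt19-8*, S2 and S8, the log2 fold changes were 3.13 in S2 and 2.68 in S8, against 2.98 and 2.69 with them. Without replicate 3 of S5, that in S5 was 1.99 against 1.75. The seed storage markers moved with genotype too, with 3 of 3 called higher than in *tt19-8* in S1, 1 of 3 in S2, S5 and S8, 0 in S4, and 1 of 3 (*OLEO1*) called lower in S7. Their part in the differences was not tested.

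Against Col-0, *TAS4* was higher in S2 (5.30-fold), S4 (2.53-fold), S5 (2.27-fold), S7 (5.12-fold) and S8 (4.34-fold), at adjusted p of 0.00019 in S5 and at most 2.14e-05 in the others. S1 was 0.39 ± 0.20 above Col-0 (log2, SE; adjusted p 0.128), although all 3 of its libraries lay above those of Col-0. In *tt19-8* the *TAS4* level was 0.57 ± 0.21 below Col-0 (log2, SE), with no overlap of the libraries but an adjusted p of 0.0720. This value passed the threshold in DESeq2 (0.0352) and in the fit of only the 6 libraries compared (0.0449). The order of the means was *tt19-8*, Col-0, S1, S5, S4, S8, S7 and S2, from 6.40 ± 0.66 to 50.4 ± 13.4 CPM (SD, n = 3). In that order, the step from S1 to S5 (12.5 to 21.6 CPM, adjusted p 0.00695) and that from S4 to S8 (24.0 to 41.3 CPM, adjusted p 0.00328) passed the test. The other neighbouring steps missed the threshold, those from *tt19-8* to Col-0 and from Col-0 to S1 without overlap of the libraries. S4 and S5 lay in the middle of the order, 0.15 ± 0.19 apart (log2, SE; adjusted p 0.551). S2, S7 and S8 had the highest means, with differences of 0.05 to 0.29 and SE of 0.19 (adjusted p 0.342 to 0.873). A difference that missed the threshold does not show that 2 lines had the same level.

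The genes whose levels over the 24 libraries were most like *TAS4*, by Pearson's r of log2(CPM + 0.5) among 19194 genes, were *AHA10* (r = 0.98), a proton pump gene with a role in vacuoles of the seed coat, *LTP6* (0.98), a lipid transfer protein gene, and *BGLU1* (0.98), a beta-glucosidase gene. These points share the genotypes and the libraries, and the correlations are a description.

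*TAS1C* and *TAS2*, the neighbouring miR173-dependent precursors, rose in part of the *RDR6* lines and fell in S5. *TAS1C* was at 6.36, 7.44 and 6.94 CPM in *tt19-8* and 8.06, 10.099 and 7.20 in Col-0. In S2 it was at 18.0, 18.8 and 12.3, in S4 at 10.9, 12.4 and 13, and in S8 at 11.1, 17.4 and 14.3. All of these libraries lay above those of *tt19-8* and of Col-0, with folds over *tt19-8* of 2.36 (adjusted p 0.00112), 1.75 (0.0228) and 2.06 (0.00301). In S5 *TAS1C* was at 2.60, 1.84 and 5.20, below every other library, or 0.467-fold of *tt19-8* (adjusted p 0.0037). In S1 (8.12, 6.65 and 9.27) and S7 (6.40, 5.73 and 6.25) it overlapped *tt19-8*, and the changes of 0.21 ± 0.24 and -0.17 ± 0.25 (log2, SE) did not pass the test. The call in S4 was lost when S4 replicate 2 or 3 or *tt19-8* replicate 1 or 2 was left out (adjusted p 0.0514 to 0.0892). In S5 the log2 fold change was -1.60 without replicate 3 of S5 and -1.10 with it, and the call was lost in the fit of 6 libraries (adjusted p 0.0641).

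*TAS2* was at 17.4, 16.1 and 15.9 CPM in *tt19-8* and at 15.1, 18.6 and 13.6 in Col-0. It was at 29.4, 32.6 and 28.3 in S2 and 23.5, 25.7 and 26.0 in S4, above all libraries of both. Its folds over *tt19-8* were 1.83 in S2 (adjusted p 0.000161) and 1.52 in S4 (adjusted p 0.00392). In S5 it was at 10.092, 9.60 and 12.2, below all other libraries and 0.647-fold of *tt19-8* (adjusted p 0.00288). S1 (18.5, 17.7 and 21.1), S7 (20.4, 22.9 and 16.3) and S8 (16.7, 22.4 and 23.8) had higher means than *tt19-8* by 0.22 to 0.35 on the log2 scale (SE 0.14), none past the threshold (adjusted p 0.0696 to 0.241), although the S1 libraries lay above those of *tt19-8*. *TAS1C* and *TAS2* were also most alike in their levels over the libraries: the gene most like *TAS2* was *TAS1C* (r = 0.87, n = 24), before *SPA3* (0.86), a gene of light signalling, and AT1G72570 (0.84). The genes after *TAS2* that were most like *TAS1C* were *WRKY38* (0.80), a transcription factor gene, and AT5G53486 (0.79).

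*TAS1A* changed less. It was at 10.6, 11.1 and 8.39 CPM in *tt19-8*, 9.34, 7.86 and 7.96 in Col-0 and 5.47, 6.07 and 6.16 in S5, where all 3 libraries were below those of every other genotype. The level in S5 was 0.585-fold of *tt19-8* (adjusted p 0.000284) and 0.702-fold of Col-0 (adjusted p 0.00724). In S2 (11.1, 11.4 and 9.94) and S4 (11, 11.7 and 11.6) the libraries lay above Col-0, by 0.37 ± 0.13 (log2, SE; adjusted p 0.040) and 0.45 ± 0.13 (adjusted p 0.00832), but overlapped *tt19-8*. The call in S2 was lost under 6 of 12 alternative settings, among them without S2 replicate 1 or 2 and without Col-0 replicate 2 or 3 (adjusted p 0.0865 to 0.132). *TAS2* (r = 0.83), AT3G44670 (0.81) and AT4G31060 (0.75) were the genes most like *TAS1A*.

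*TAS1B* had the lowest counts of the 6, from 58 to 285 per library. Its CPM were 3.55, 3.31 and 3.58 in *tt19-8*, 2.62, 3.92 and 2.59 in Col-0, 4.64, 4.96 and 3.68 in S5 and 1.83, 2.39 and 3.25 in S7. The S5 libraries lay above and those of S1 (2.21, 2.91 and 3.09) and S7 below those of *tt19-8*, but no line passed the test against *tt19-8* or Col-0. At an unadjusted p under 0.05 in edgeR it differed in 0 of 6 lines from *tt19-8* and in 1 of 6 from Col-0, and DESeq2 called it in neither set (adjusted p 0.0814 to 0.983). Between lines, S7 was lower than S5 by 0.81 ± 0.24 (log2, SE; adjusted p 0.0093) and than S4 by 0.61 ± 0.24 (0.0449). S5 was higher than S1 by 0.69 ± 0.24 (0.0436). The call between S5 and S1 was lost under 6 of 12 alternative settings (up to 0.183, without S1 replicate 1; also without S1 replicate 2 or 3 or S5 replicate 1 or 2). That between S7 and S4 was lost under 5 of 12 (up to 0.184, without S7 replicate 1; also without S7 replicate 2 or S4 replicate 1 or 3), and that between S7 and S5 without S7 replicate 1 (0.0590). The 3 genes most like it were AT4G17420 (r = 0.81), AT4G33565 (0.76) and *ATG8H* (0.76), a gene of autophagy. Unlike the other miR173-dependent precursors, whose levels correlated at r of 0.73 to 0.87 with each other, *TAS1B* correlated with them at -0.19 to -0.13 over the 24 libraries. These are descriptions over shared libraries.

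*TAS3*, the miR390-dependent precursor, was lowest in Col-0 at 5.41, 5.28 and 3.98 CPM. It was at 5.70, 6.03 and 7.82 in *tt19-8*, 7.54, 7.0 and 6.51 in S1, 9.08, 7.54 and 7.66 in S2, 8.56, 8.32 and 8.91 in S4 and 8.67, 9.41 and 11.3 in S5. All of these libraries lay above those of Col-0. Against Col-0 it was higher in S1 (1.43-fold, adjusted p 0.0165), S2 (1.65-fold, 0.00254), S4 (1.75-fold, 0.000497) and S5 (2.00-fold, 0.000157), while *tt19-8* was 0.41 ± 0.17 higher (log2, SE; adjusted p 0.102). S7 (5.67, 7.21 and 6.18) and S8 (6.09, 5.28 and 8.17) did not pass the test, at 0.37 ± 0.17 and 0.42 ± 0.17 (log2, SE). Against *tt19-8* only S5 passed, at 1.5-fold (adjusted p 0.0122). This call was lost without S5 replicate 3, without *tt19-8* replicate 1 or 2 and in the fit of 6 libraries (adjusted p 0.0507 to 0.0562), and that of S1 against Col-0 without S1 replicate 1 or Col-0 replicate 3 (0.0663 and 0.0900). None of the neighbouring steps in the order of its genotype means passed the test. The genes most like it were *ECT1* (r = 0.85), for a protein that binds methylated RNA, AT4G24200 (0.83) and AT2G32020 (0.83).

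By line, the number of precursors that differed from *tt19-8* was 5 of 6 in S5 (24.7% of all genes called), 3 each in S2 (19.1%) and S4 (18.7%), 2 in S8 (25.6%), and 1 each in S1 (34%) and S7 (37.3%). The counts in S1, S7 and S8 were thus not far from, or below, the share of all genes. Without S7 replicate 3 it was 3 in S7. The median log2 fold change of the 6 was 0.59 for S2, 0.50 for S4, 0.18 for S8, 0.16 for S1, -0.10 for S7 and -0.14 for S5, against -0.02 to 0.00 over all genes tested. Between *tt19-8* and Col-0, 0 of 6 passed edgeR's test, 2 had an unadjusted p under 0.05, DESeq2 called 1 (*TAS4*), and 13.6% of all genes were called.

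Relative to Col-0, 5 of 6 differed in S2 (27.3% of all genes called) and S5 (25.2%), 4 in S4 (42.9%), 3 in S8 (29.2%), and 1 each in S1 (36.4%) and S7 (42.7%). All the called differences were increases, except those of *TAS1A*, *TAS1C* and *TAS2* in S5. For *TAS1C* they were 0.95 ± 0.24 in S2 and 0.75 ± 0.24 in S8, and -1.39 ± 0.25 in S5 (log2, SE). For *TAS2* they were 0.93 in S2, 0.67 in S4, 0.41 in S8 and -0.57 in S5, each with an SE of 0.14. The calls of *TAS1C* and *TAS2* in S8 against Col-0 were lost on leaving out S8 replicate 2 or 3, or Col-0 replicate 1 or 3 (adjusted p 0.0576 to 0.161). The comparisons with *tt19-8* share its 3 libraries, and those with Col-0 share its 3 libraries, so they are not independent of each other.

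**Figure D2:**
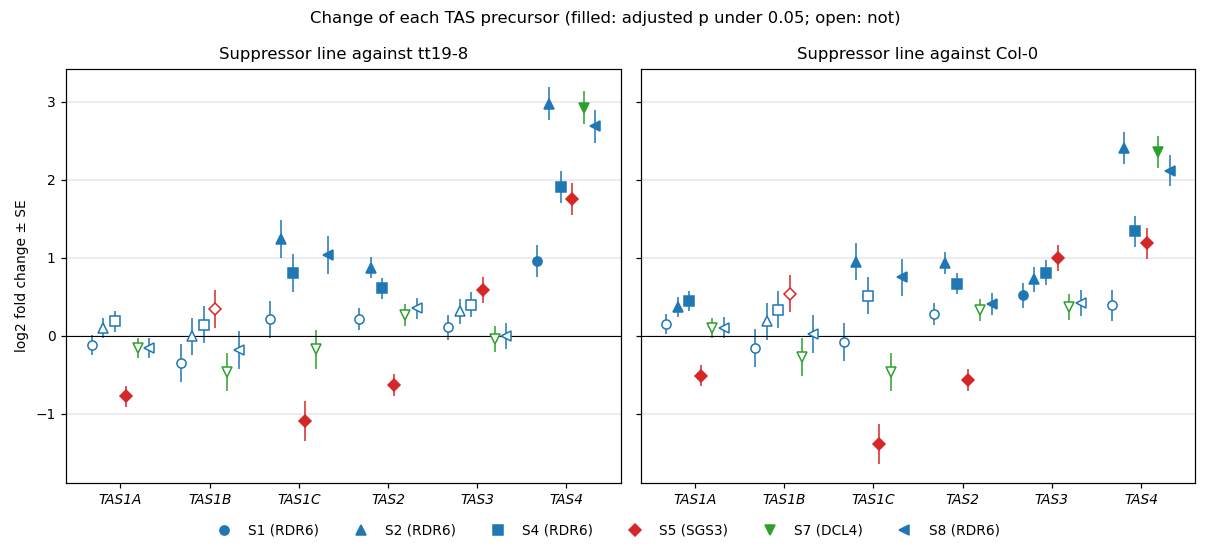
log2 fold change ± SE (y axis) of each *TAS* precursor (x axis) in the 6 suppressor lines against *tt19-8* (left) and Col-0 (right); symbols are lines, colours the mutated gene, filled symbols an adjusted p under 0.05. *TAS4* is positive in every line, from 0.96 to 2.98 against *tt19-8*, while in S5 (red) *TAS1A*, *TAS1C* and *TAS2* are negative at -0.77, -1.10 and -0.63.

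The lines were also compared with each other for each precursor. Of the 15 pairs of lines, 11 differed in *TAS4*, 11 in *TAS1C*, 9 in *TAS2*, 7 in *TAS1A*, 4 in *TAS3* and 3 in *TAS1B*. The share of all genes called in a pair ran from 10.7% (S8 against S2) to 46.9% (S7 against S1). As shares of the 15 pairs, the counts for *TAS1A*, *TAS3* and *TAS1B* lay within that range. S5 differed from all 5 other lines in *TAS1A*, *TAS1C* and *TAS2*, from 4 in *TAS4*, from 3 in *TAS3* and from 2 in *TAS1B*. *TAS1C* was lower in S5 than in S2 by 2.34 ± 0.26 (adjusted p 2.96e-06), than in S4 by 1.90 ± 0.25 (7.76e-06) and than in S1 by 1.31 ± 0.25 (0.00106, all log2, SE). S7 and S5, the lines mutated in *DCL4* and *SGS3*, differed in all 6 precursors (45.2% of all genes called). Here S7 was higher in *TAS1A* (0.61 ± 0.13), *TAS1C* (0.92 ± 0.26), *TAS2* (0.90 ± 0.14) and *TAS4* (1.17 ± 0.19) and lower in *TAS1B* and *TAS3*. The call of *TAS1C* between S7 and S5 was lost in the fit of 6 libraries (adjusted p 0.0532).

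The 4 lines with a mutated *RDR6* did not have the same levels. S1 had less *TAS4* than S2 by 2.01 ± 0.20, than S4 by 0.95 ± 0.19 and than S8 by 1.73 ± 0.20 (log2, SE; adjusted p 1.78e-07, 0.000538 and 1.95e-06). S2 against S1 differed in 3 of 6 precursors (30.8% of all genes called), S4 against S1 in 3 (42.2%), S8 against S1 in 2 (28%), S8 against S4 in 2 (35.6%), S4 against S2 in 1 (28.6%) and S8 against S2 in 1 (10.7%). In the last 2 pairs the precursor was *TAS4*, with S4 below S2 by 1.07 ± 0.19 (adjusted p 0.000326), and *TAS2*, lower in S8 than in S2 by 0.52 ± 0.14 (adjusted p 0.016). The latter call was lost without S2 replicate 2 (0.0749), without S8 replicate 1 (0.102) and in the fit of 6 libraries (0.0963). Among the other pairs of these lines, calls were lost when 1 library was left out for *TAS1C* and *TAS2* between S4 and S1 (any library but S1 replicate 3, with S4 replicate 1 for *TAS1C* alone; up to 0.176 and 0.0959), for *TAS1C* between S8 and S1 (S1 or S8 replicate 2; up to 0.0709) and for *TAS1A* between S8 and S4 (any library but S8 replicate 3; up to 0.232). *RDR6* mRNA was 1.46 ± 0.12 lower than in *tt19-8* in S8 and 0.56 ± 0.11 lower in S2 (log2, SE; adjusted p 4.47e-08 and 0.00158), while S1 and S4 (-0.24 ± 0.11 and -0.01 ± 0.11) did not pass the test.

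For the other pairs, S5 against S1 differed in all 6 (19.8% of all genes called), S8 against S5 in 5 (14.9%), S7 against S4 in 5 (43.8%), S5 against S2 in 4 (19.2%), S5 against S4 in 3 (41.5%), S7 against S2 in 2 (28.5%), S7 against S1 in 1 (46.9%) and S8 against S7 in 1 (39.9%). Leaving out 1 library also ended calls here. Between S5 and S1, *TAS3* was lost without any of these libraries but S5 replicate 1 (up to 0.163), beside *TAS1B* as given above. Between S7 and S4, *TAS1A* was lost without any S4 library or S7 replicate 2 or 3 (up to 0.168) and *TAS3* without any S4 library or S7 replicate 1 or 3 (up to 0.114). Between S8 and S5, *TAS3* was lost without S5 replicate 3 or S8 replicate 1 or 2 (up to 0.102). S7 and S1 differed in *TAS4*, by 1.96 ± 0.20. S8 and S7 differed in *TAS1C*, by 1.21 ± 0.24, and S7 was below S2 in *TAS1C* and *TAS2*. S7 thus combined *TAS4* levels that overlapped those of S2 and S8 with *TAS1C* levels that overlapped those of *tt19-8*.

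The summed CPM of the 6 precursors was 50.02 ± 5.98 in Col-0, 49.8 ± 1.09 in *tt19-8*, 119 ± 19.9 in S2, 95.1 ± 14.4 in S8, 92.5 ± 6.16 in S7, 85.1 ± 4.08 in S4, 58.7 ± 2.75 in S1 and 55.6 ± 2.92 in S5 (SD, n = 3). *TAS4* made up 19.0% ± 2.05 of this sum in Col-0, 12.8% ± 1.10 in *tt19-8*, 52.6% ± 1.91 in S7, 43.5% ± 3.01 in S8, 41.7% ± 4.68 in S2, 38.5% ± 10.4 in S5, 28.2% ± 0.48 in S4 and 21.3% ± 2.88 in S1. The sums of the S5 libraries (56.0, 58.2 and 52.5) lay above those of *tt19-8* (50.8, 50.1 and 48.6), but S5 had the lowest mean sum of the lines. Its make-up differed from that of *tt19-8*, with more *TAS4* and less *TAS1A*, *TAS1C* and *TAS2*. The sums and shares were not tested.

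**Figure D3:**
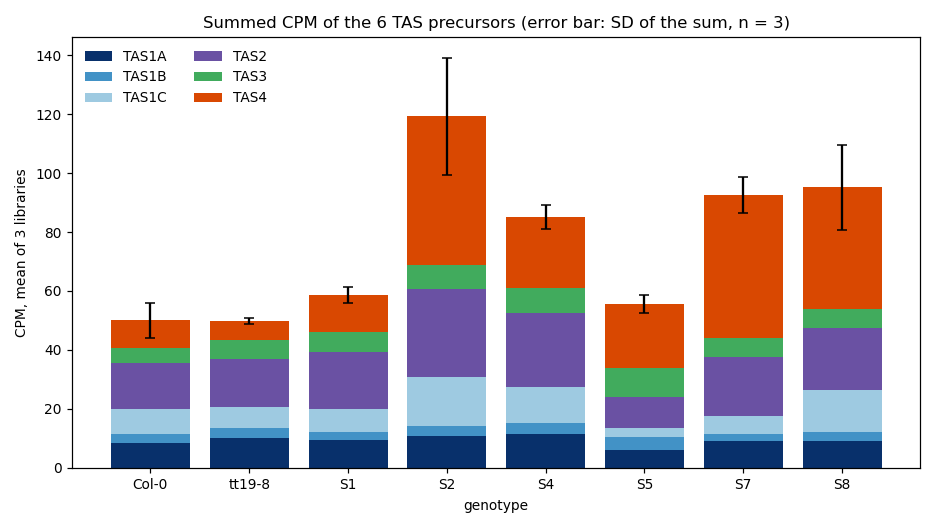
Mean CPM of the 6 *TAS* precursors stacked for each genotype (n = 3); the error bar is the SD of the sum. The sum is 49.8 in *tt19-8* and 119 in S2, and the *TAS4* part (orange) makes up 12.8% and 41.7% of it.

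S5 had a library that stood apart. In S5 replicate 3, *TAS1C* (5.20 CPM) was higher and *TAS4* (13.9 CPM) lower than in replicates 1 and 2, toward the *tt19-8* levels. *TAS3* lay further from *tt19-8* (5.70 to 7.82 CPM) there, at 11.3 CPM against 8.67 and 9.41 in replicates 1 and 2. In the same library *SGS3*, mutated in S5, was at 19.2 CPM against 8.90 and 9.80 in the other S5 libraries and 27.6 to 32.3 in *tt19-8*, and *PAP1* was at 33.3 CPM against 58.2 and 63.8. S2 replicate 3 had less *TAS4*, *TAS1C* and *PAP1* (58.1 CPM against 113 and 118) than the other S2 libraries and the highest seed storage markers of its line. S7 replicate 3 had less *TAS1A* (7.91 CPM against 9.81 and 9.39) and *TAS2* (16.3 against 20.4 and 22.9) than the other S7 libraries. It had more *TAS1B*, at 3.25 CPM against 1.83 and 2.39. The part of these differences in the results was not tested beyond leaving the libraries out.

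The listed targets of the tasiRNAs were examined next, by the precursor that makes their siRNA. Of the 5 *HTT* genes, listed as *TAS1* targets, 4 were higher than in *tt19-8* in S1 and S4 and 3 in each of S2, S5, S7 and S8, and none was lower in edgeR, at an unadjusted p under 0.05 or in DESeq2. For comparison, the share of all tested genes called against *tt19-8*, higher or lower, lay between 18.7% (S4) and 37.3% (S7). The list's median log2 fold change ran from 1.25 in S8 to 2.40 in S1, where the median gene was *HTT5*. *HTT* genes are known for induction by heat and a role in thermotolerance. *HTT3* (AT4G29760) and *HTT1* (AT4G29770) rose most. *HTT1* was at 0.336, 0.280 and 0.0732 CPM in Col-0, the last of which corresponds to 3 counts. It was at 0.413, 0.599 and 0.541 in *tt19-8* and between 2.78 and 8.86 in the 18 libraries of the lines, so that no line overlapped *tt19-8* or Col-0. Its log2 fold changes over *tt19-8* ran from 3.01 ± 0.35 in S5 to 3.94 ± 0.35 in S8 (adjusted p at most 7.49e-06). *HTT3* rose by 3.26 ± 0.46 in S5 to 4.34 ± 0.45 in S7, from 0.138 to 0.248 CPM in *tt19-8*, and *HTT2* (AT5G18040) by 0.72 ± 0.17 in S1 to 1.39 ± 0.17 in S2. *HTT4* passed the test in S4 alone (0.58 ± 0.15, adjusted p 0.0111). *HTT5*, at 0.123 ± 0.10 CPM in *tt19-8* (SD, n = 3), passed it in S1 alone (2.40 ± 0.61, adjusted p 0.00439). In the *tt19-8* libraries 3 counts corresponded to 0.0691 to 0.0853 CPM, so *HTT5* was near that floor.

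The stretches of the 5 genes that pair with the *TAS1* window are shown beside these results. Those of *HTT2* and *HTT4* had 1 mismatch and 2 G:U pairs, those of *HTT1* and *HTT3* 2 mismatches and 1 G:U pair, and that of *HTT5* 2 mismatches and 2 G:U pairs.
HTT1: cACGaTATGTTGGACTTAGAg
HTT2: cACGCTATGTTGGACTTAGgg
HTT3: cACaCTATGTTGGACTTAGAg
HTT4: cACGCTATGTTGGACTTAGgg
HTT5: cgCGCTAcGTTGGACTTAGAg
The stretch of *HTT4* was identical to that of *HTT2*, and *HTT4* was 0.02 to 0.28 above *tt19-8* on the log2 scale in the 5 lines where it did not pass the test.

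Of the 9 *PPR* genes listed as *TAS2* targets, 3 were higher than in *tt19-8* in S1, 4 in S2 and 5 each in S4, S5, S7 and S8, with none lower in edgeR, at an unadjusted p under 0.05 or in DESeq2. Of all genes, 34% were called in either direction in S1, near the 3 of 9 here, and 18.7% to 37.3% in the other lines. The median log2 fold change of the 9 ran from 0.34 in S1 to 0.63 in S7. AT1G63130 was at 8.01, 7.92 and 6.26 CPM in *tt19-8* and between 10.4 and 15.6 in the libraries of the lines, and rose by 0.72 ± 0.13 in S2 to 1.00 ± 0.13 in S7 (log2, SE; adjusted p at most 0.000478). *RPF3* (AT1G62930), which acts in mitochondrial RNA processing, was likewise higher in all 6 lines. Its best stretch for the *TAS2* window shown above had 5 mismatches and 1 G:U pair, and that of AT1G62670 had 4 mismatches and 1 G:U pair. The *TAS2* window with the next best mean score was the antisense strand of window 12. For that window *RPF3* had 3 mismatches and no G:U pair, and AT1G62670 had 5 mismatches and 1 G:U pair. AT1G62914, AT1G63080 and AT1G62670 passed the test in no line, with 0 of 6 at an unadjusted p under 0.05 in edgeR and 0 of 6 in DESeq2 for each. The best stretches of AT1G63130 and AT1G63080 had the same sequence and a single G:U pair with the *TAS2* window, and only the first of these genes was called.
AT1G63130: CAGATGGTgGAAATGGGATAT
AT1G63080: CAGATGGTgGAAATGGGATAT
These genes form a family with similar sequences, and 6.04% (AT1G62670) to 60% (AT1G62910) of their 100-base windows occur elsewhere in the genome, so counts can be split among them. For the *HTT*, *ARF* and *MYB* targets that share was 0.

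Among the *TAS3* targets, *ARF4* rose in all 6 lines and *ARF3* in 4, S2, S4, S5 and S7, whereas *ARF2* fell in S1 and S5. DESeq2 called *ARF3* higher in 5 lines. Over all genes tested, 18.7% (S4) to 37.3% (S7) were called in either direction against *tt19-8*. In S7, where *TAS3* was 0.04 ± 0.16 below *tt19-8* (log2, SE), *ARF4* was at 99.9 ± 4.17 CPM, and in S5, with the highest *TAS3*, it was at 76.3 ± 9.77 (SD, n = 3). The stretches that pair with the *TAS3* window are shown for the 3 genes.
ARF2: AAgGGtCTTgCAAGGTCAAGA
ARF3: gAgGGtCTTgCAAGGTCAAGA
ARF4: AAgGGtCTTgCAAGGTCAAGA
*ARF2* and *ARF4* had the same 21 bases, and *ARF3* had 1 more G:U pair. No stretch had a mismatch.

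The *TAS4* targets did not move as a set. Of *PAP1*, *PAP2* and *MYB113*, 2 were higher than in *tt19-8* in S1, S2, S7 and S8, 3 in S5 and 0 in S4, and *MYB113* was lower in S7. Among all genes, the called share, counting both directions, was lowest for S4 (18.7%) and highest for S7 (37.3%). In S4, *TAS4* was 3.75-fold above *tt19-8* while *PAP1* was at 24.3, 24.6 and 24.7 CPM against 24.8, 24.6 and 22.8, a log2 change of 0.03 ± 0.20 (adjusted p 0.94). *PAP2* was at 20.6, 18.8 and 21.4 CPM in S4 against 14.3, 14.9 and 16.6, without overlap, a log2 change of 0.41 ± 0.21 (adjusted p 0.188). For the 0 of 3 in S4, the count at an unadjusted p under 0.05 in edgeR was 0 and that of DESeq2 was 0. S4 and S8 differed in *TAS4*, and *PAP1* was at 87.7 ± 1.54 CPM in S8 and 24.5 ± 0.18 in S4 (SD, n = 3). For *TAS4*, S5 minus S4 was -0.15 ± 0.19 (log2, SE; adjusted p 0.551), although 3 targets were called higher in S5 and 0 in S4.

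**Figure D4:**
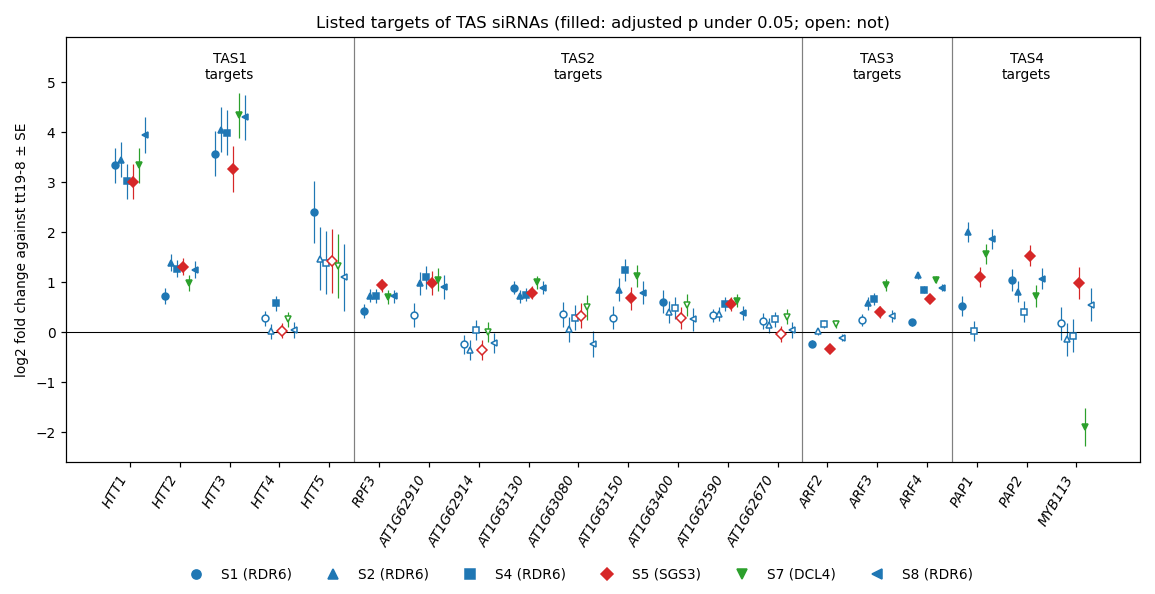
log2 fold change ± SE (y axis) against *tt19-8* of the 20 listed target genes (x axis), grouped by the precursor; symbols are lines, colours the mutated gene, filled symbols an adjusted p under 0.05. *HTT1* and *HTT3* lie between 3.01 and 4.34 in all lines, and the *PPR* genes that pass lie between 0.39 and 1.24.

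The other genes of the pathway were also read from a fixed list. Of 13 genes for the siRNA machinery, 1 was higher and 2 lower than in *tt19-8* in S1, 0 and 1 in S2, 0 and 1 in S4, 0 and 5 in S5, 3 and 1 in S7, and 1 and 3 in S8. Of all genes, 37.3% were called in either direction in S7, 34% in S1, 25.6% in S8, 24.7% in S5, 19.1% in S2 and 18.7% in S4, so the counts for the machinery were near or below these shares except in S5. In S2, S4 and S5, where edgeR called 0 higher, 2 each were higher at an unadjusted p under 0.05 and DESeq2 called 0. In S5 the 5 were *SGS3*, *DCL4*, *AGO1*, *DCL1* and *DCL2*, of which *SGS3* fell most, by 1.24 ± 0.18 (log2, SE; adjusted p 4.53e-05). *AGO7*, which acts with miR390, fell in S4 by 0.49 ± 0.12 (adjusted p 0.0074). The loci of the miRNA precursors *MIR173*, *MIR390A*, *MIR390B* and *MIR828* and the further *TAS3* loci *TAS3B* and *TAS3C* had at most 14 counts in any library and did not pass the filter on low counts.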

How the data were processed

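The 24 libraries were made from total RNA and sequenced as paired 100 bp reads. The authors checked reads with FastQC 0.11.5, mapped them to TAIR10 by HISAT2 and obtained counts per gene from featureCounts, and the deposited values are raw counts. Strand setting, handling of reads with several matches and annotation release are not given in the sources used here. Counts were tested with edgeR 4.0.16 in R 4.3.3 (quasi-likelihood test, TMM, filterByExpr). All 24 libraries entered one fit with a mean per genotype, 28 pairs of genotypes were compared, and p-values were adjusted over the 22089 genes of each pair (Benjamini-Hochberg), with a call at an adjusted p under 0.05. CPM were counts scaled by the total of each library multiplied by its TMM factor (0.931 to 1.06). The precision of a value is limited by its counts, and 3 counts were taken as the floor. DESeq2 1.42.0, RLE scaling, no filter, a replicate block, fits of 6 libraries and leaving out libraries were the alternatives. The genes named were the members, the listed targets and machinery, and the 3 genes most like each member among those with a mean of at least 1 CPM. Members and lists were chosen with earlier results of these data known. Sequences came from RefSeq TAIR10.1 and were read with Biopython 1.88. The tests were tested on simulated data. Samples with the same replicate number deviated together (every correlation of deviations over 0.1) in S2 against *tt19-8* (mean r 0.249) and S8 against *tt19-8* (0.278), and the block changed no call of a precursor there.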

Additional observations from a re-analysis of the deposited data

Results flagged for a closer look

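The called changes of *TAS1C* and *TAS2* against *tt19-8* had opposite directions in S5 and in the *RDR6* lines S2 and S4, and for *TAS1C* also in S8. Pairs were listed here only where both changes and the difference between the lines passed edgeR's test, so passing it was part of the choice. For *TAS1C*, the log2 change in S5 minus that in S2 was -2.34 ± 0.26 (SE, adjusted p 2.96e-06), S5 minus S4 was -1.90 ± 0.25 (7.76e-06), and S8 minus S5 was 2.14 ± 0.26 (2.19e-05). For *TAS2*, S5 minus S2 was -1.50 ± 0.14 (4.9e-07) and S5 minus S4 was -1.24 ± 0.14 (1.34e-06). In each case the 3 libraries of S5 lay below, and those of the other line above, all *tt19-8* libraries. Groups of 3 libraries were not tested for single libraries far from the others.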

How the results depend on the processing

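Of 34 called changes against *tt19-8* or Col-0, 27 kept call and direction under every alternative, as did 32 of 45 called differences between lines. Of 44 uncalled changes, 14 were called under at least 1 alternative, and no called change was reversed. The number of precursors called between *tt19-8* and Col-0 was 1 with DESeq2 and 1 in the fit of 6 libraries. That fit called 3 in S5 against *tt19-8*, 3 in S1 against Col-0 and 2 in S7 against Col-0, and leaving out replicate 3 of *tt19-8*, S2 and S8 together also gave 2 in S7 against Col-0. Leaving out 1 library gave 1 to 3 in S7 against *tt19-8* (3 without S7 replicate 3), 0 to 2 in S1 against Col-0 (0 without S1 replicate 1 or Col-0 replicate 3), 1 to 2 in S7 against Col-0 (2 without S7 replicate 3 or Col-0 replicate 2) and 1 to 3 in S8 against Col-0 (1 without S8 replicate 3 or Col-0 replicate 1 or 3). Leaving out 1 library also gave 1 to 4 pairs of lines called for *TAS1B* and 2 to 5 for *TAS3*, which over all alternatives had 2 to 6. The causes were not tested.

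Uncalled log2 changes near 0 changed sign. With replicate 3 of *tt19-8*, S2 and S8 left out, *TAS1B* was 0.074 in S2 and *TAS3* 0.10 in S7 and -0.031 in S8 against *tt19-8*, and *TAS1B* -0.14 in S8 against Col-0. *TAS1B* in S2 was 0.0053 in the fit of 6 libraries, and *TAS3* in S8 was -0.0012 without the filter. Leaving out 1 library gave -0.035 to 0.20 for *TAS2* in *tt19-8* against Col-0, -0.0098 to 0.18 for *TAS1A* in S2 against *tt19-8*, -0.11 to 0.059 for *TAS1B* in S2 against *tt19-8*, -0.13 to 0.11 for *TAS3* in S7 against *tt19-8*, -0.33 to 0.071 for *TAS1B* in S8 against *tt19-8*, -0.19 to 0.15 for *TAS3* in S8 against *tt19-8*, -0.26 to 0.068 for *TAS1B* in S1 against Col-0, -0.20 to 0.068 for *TAS1C* in S1 against Col-0 and -0.14 to 0.26 for *TAS1B* in S8 against Col-0.

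With the replicate block, calls of *TAS1C* between S4 and S1 (0.59, adjusted p 0.0571), *TAS3* between S5 and S1 (0.47, 0.0528) and *TAS1A* between S8 and S4 (-0.34, 0.0564) were lost, and no other call or count changed by over 1.5 times. In the pairs not named above as deviating together, the mean correlation of same-numbered libraries was -0.27 (S7 against *tt19-8*) to 0.19 (S8 against S2). Precision was limited by 3 libraries per genotype and 48 to 3051 counts per precursor.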
